A study of Mus musculus with 25 samples.

Results

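A set of 10 genes known for their expression in fat cells was followed in mouse lung. The genes are Adipoq, Retn, Cfd, Thrsp, Pck1, Plin1, Cidec, Car3, Cox8b and Ucp1, and they were chosen by name, as probe sets annotated to one of these symbols and to no other. The names were chosen with earlier results of these data known. Counts of members set beside shares of all genes therefore describe the set and are no test of it. Of the 45101 probe sets on the array, 15 met this rule, and they covered 8 of the 10 genes. Cfd and Plin1 have no probe set named in the annotation used here and were not analysed. The probe set with the highest mean over all arrays stood for each gene, which gave 18193 genes in all. Genes entered the test if 4 or more arrays read them higher than that array's own median. This left 12062 genes, among them 7 of the 8 measured adipocyte genes, all but Ucp1.

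The lungs came from 25 female mice, 12 FP-KO and 13 WT. FP is the receptor for prostaglandin F2 alpha, encoded by Ptgfr, and FP-KO mice lack it. Bleomycin, a drug that injures the lung and is used to produce pulmonary fibrosis in mice, had been instilled into the trachea at 1 mg/kg in 40 ul of saline on Day 0. There were 4 FP-KO mice on each of Day 0, Day 7 and Day 14, and 4 WT mice on Day 0, 4 on Day 7 and 5 on Day 14. The Day 0 arrays are described as baseline, and the strain, the age, the design of the knockout and how the lungs were dissected are not given in the sources used here.

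White fat cells store triglyceride in 1 large droplet and release hormones, the adipokines, into the blood. Brown fat cells hold many small droplets and many mitochondria, and they burn fatty acids to give heat. The lung itself is poor in fat cells, but fat lies around the large airways, the vessels and the heart at the root of the lung. In whole tissue, fewer cells of a type and less RNA per cell cannot be told apart.

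Promoter sequences are shown for 4 genes, since Adipoq, Retn, Thrsp and Cox8b were, with Car3, the members that were higher in FP-KO than in WT lungs on Day 14. Each runs 5′ to 3′ on the gene's own strand, from 250 bases before the annotated start of transcription to 50 bases from it on, and comes from RefSeq (GRCm38.p6). Adipoq lies on chromosome 16 (window chr16:23146286-23146585, plus strand), Retn on chromosome 8 (chr8:3655520-3655819, plus strand), Thrsp on chromosome 7 (chr7:97417501-97417800, minus strand) and Cox8b on chromosome 7 (chr7:140900397-140900696, minus strand). Capitals mark matches, on either strand, to CCAAT or TATAAA, the core letters of 2 common promoter boxes, to AGGTCA, a single site of nuclear receptors, to TTGCNNAA, a C/EBP-like motif, or to AGGNCANAGGNCA, a direct repeat of the kind that PPAR gamma binds.
Adipoq: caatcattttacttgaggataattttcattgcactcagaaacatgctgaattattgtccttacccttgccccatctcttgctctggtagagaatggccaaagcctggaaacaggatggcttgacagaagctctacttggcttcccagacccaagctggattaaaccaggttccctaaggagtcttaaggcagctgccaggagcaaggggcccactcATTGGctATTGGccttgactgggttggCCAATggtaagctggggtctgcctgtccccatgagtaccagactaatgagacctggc
Retn: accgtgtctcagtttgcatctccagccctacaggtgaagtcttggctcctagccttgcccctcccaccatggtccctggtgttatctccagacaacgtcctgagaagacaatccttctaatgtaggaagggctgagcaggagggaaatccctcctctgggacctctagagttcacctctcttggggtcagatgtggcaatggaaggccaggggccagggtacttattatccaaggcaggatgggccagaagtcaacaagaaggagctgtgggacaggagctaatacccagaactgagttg
Thrsp: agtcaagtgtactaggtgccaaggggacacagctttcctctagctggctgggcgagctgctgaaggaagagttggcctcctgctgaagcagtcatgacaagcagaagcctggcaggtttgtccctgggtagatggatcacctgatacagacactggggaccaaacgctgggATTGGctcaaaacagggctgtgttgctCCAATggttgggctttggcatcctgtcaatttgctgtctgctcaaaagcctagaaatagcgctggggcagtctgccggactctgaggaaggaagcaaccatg
Cox8b: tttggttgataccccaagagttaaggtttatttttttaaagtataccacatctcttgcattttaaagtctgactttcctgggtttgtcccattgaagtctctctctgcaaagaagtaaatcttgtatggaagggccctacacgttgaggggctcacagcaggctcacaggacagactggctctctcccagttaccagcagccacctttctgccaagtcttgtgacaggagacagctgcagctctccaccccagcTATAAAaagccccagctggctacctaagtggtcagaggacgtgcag
Promoter windows were found for 9 of the 10 genes, 10 windows in all because Cidec has 2 annotated starts. CCAAT was found in the windows of 2 of these 9 genes, with 3 matches in Adipoq and 2 in Thrsp, and 37.4% of all 32851 windows of the same length hold it. TATAAA was found in 1, Cox8b, beginning 4 bases after the start, against 13.6% of all windows. AGGTCA was found in 1, Ucp1, beginning 14 bases before the start, against 16.3% of all windows. TTGCNNAA was found in Plin1 and in 1 of the Cidec windows, against 10.8% of all windows. The direct repeat, whose matches can include an AGGTCA, was found in none of the 10 windows, and 0.381% of all windows hold it. The Retn window held none of the 5 motifs, so it has no capitals.

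The targeted gene bore out the labels, with Ptgfr at 21.1 to 57.6 in FP-KO lungs, against 122.6 to 383.7 in WT lungs. The tissue was lung by its markers, with Sftpc, the surfactant protein of alveolar type 2 cells, at 29223.7 to 42588.7 in FP-KO and 26192.1 to 39516 in WT lungs. All intensities are the deposited values, which are linear, are scaled to the same trimmed mean of 500 on every array, and have no unit. Intensities of different probe sets are not comparable with each other. The first principal component held 42.0% of the variance and placed 1 array apart from its group: FP-KO Day 14 No. 2 lay at -28.9, among the Day 0 arrays (-35.0 to -24.8), whereas the other FP-KO Day 14 arrays lay between -5.37 and 1.44. Its 18S ribosomal intensity was 6339, against a median of 315.5 over all arrays, but FP-KO Day 0 No. 1 was higher at 6648.1, and FP-KO Day 0 No. 3, WT Day 0 No. 1 and WT Day 14 No. 1 lay between 2140.2 and 2869.8. The second component split the Day 14 arrays of both genotypes into a first set (FP-KO No. 1 and 2, WT No. 1 to 3, at -30.1 to -27.7) and a second set (FP-KO No. 3 and 4, WT No. 4 and 5, at -1.35 to 2.28). Results of the members on Day 14 are therefore given with and without FP-KO Day 14 No. 2 and within each set. Differences of single list genes on Day 14 come from all arrays, this one included, unless stated.

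Adipoq encodes adiponectin, a hormone made almost only by fat cells. On Day 0 it read 1469.8, 1418.4, 1044.9 and 1148.8 in FP-KO lungs, against 3522.5, 3788.9, 1236.0 and 1972.2 in WT lungs. On Day 7 it read 589.7, 834.0, 1825.2 and 1149.8 in FP-KO lungs, against 1076.3, 594.7, 561.6 and 814.2 in WT lungs. On Day 14 it read 571.5, 1361.1, 1018.3 and 658.9 in FP-KO lungs, against 547.3, 251.1, 344.7, 400.3 and 573.2 in WT lungs. Every WT lung of Day 7 and Day 14 lay below every WT lung of Day 0, while the FP-KO groups overlapped between days. On Day 14, 3 of 4 FP-KO lungs lay above all 5 WT lungs and the lowest FP-KO lung lay just under the highest WT lung.

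Retn encodes resistin, in mice a hormone of white fat. Its Day 0 intensities were 566.2, 510.6, 498.4 and 664.4 in FP-KO lungs, against 940.2, 1209.0, 505.0 and 725.9 in WT lungs. Its Day 7 intensities were 386.1, 403.2, 935.0 and 372.8 in FP-KO lungs, against 503.0, 370.4, 295.1 and 404.9 in WT lungs. By Day 14 they were 350.7, 529.8, 503.1 and 355.3 in FP-KO lungs, against 231.0, 189.9, 171.0, 248.4 and 284.8 in WT lungs. The genotypes did not overlap on Day 14 and overlapped on Day 0 and Day 7. FP-KO Day 7 No. 3, the highest FP-KO lung for Adipoq, was also the highest for Retn.

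Thrsp encodes a nuclear protein that promotes fatty acid synthesis and responds to thyroid hormone. It stood at 905.0, 751.7, 751.6 and 1345.4 in FP-KO lungs on Day 0, against 1412.9, 1789.4, 620.1 and 1236.2 in WT lungs. It stood at 323.0, 387.6, 1805.0 and 644.8 in FP-KO lungs on Day 7, against 362.5, 273.1, 268.6 and 561.2 in WT lungs. It stood at 566.7, 771.7, 888.1 and 483.8 in FP-KO lungs on Day 14, against 249.4, 198.3, 169.0, 215.0 and 309.9 in WT lungs. Again the genotypes were apart only on Day 14, when every FP-KO lung was above every WT lung, and FP-KO Day 7 No. 3 held the highest value of the whole series.

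Pck1 encodes the cytosolic phosphoenolpyruvate carboxykinase, which supplies glycerol 3-phosphate for triglyceride in fat cells and glucose in liver and kidney. On Day 0 it ranged widely, at 271.0, 312.0, 154.3 and 55.9 in FP-KO lungs, against 653.7, 508.0, 99.7 and 217.6 in WT lungs. On Day 7 it was at 82.0, 127.3, 231.9 and 142.9 in FP-KO lungs, against 183.9, 105.6, 112.7 and 81.1 in WT lungs. On Day 14 it was at 144.4, 425.9, 181.5 and 58.5 in FP-KO lungs, against 55.3, 42.7, 51.5, 49.5 and 122.4 in WT lungs. The spread between mice of 1 group was the widest among the 7 tested members on Day 0, with an SD of log2 values of 1.19 in FP-KO and 1.33 in WT lungs.

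Cidec encodes a protein of the lipid droplet surface that helps small droplets fuse into a large one. Its intensities on Day 0 were 288.4, 315.1, 251.9 and 209.7 in FP-KO lungs, against 328.9, 424.3, 275.9 and 363.0 in WT lungs. On Day 7 they were 95.1, 162.7, 184.1 and 190.6 in FP-KO lungs, against 146.0, 108.7, 189.1 and 145.7 in WT lungs. On Day 14 they were 151.6, 379.4, 219.4 and 111.0 in FP-KO lungs, against 104.4, 136.3, 108.5, 71.7 and 146.2 in WT lungs. In both genotypes all Day 7 lungs lay below all Day 0 lungs. The Day 14 lungs of the genotypes overlapped, and of the FP-KO lungs of that day No. 2 lay above and No. 3 within the Day 0 range of its genotype, while No. 1 and No. 4 lay below it.

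Car3 encodes carbonic anhydrase 3, abundant in fat cells and slow skeletal muscle. It measured 7129.4, 5655.4, 5343.2 and 5114.7 in FP-KO lungs on Day 0, against 12492.5, 11084.8, 6106.0 and 7622.1 in WT lungs. It measured 2942.6, 3096.1, 6097.0 and 4251.9 in FP-KO lungs on Day 7, against 4472.2, 2235.5, 2929.0 and 5080.0 in WT lungs. It measured 4352.9, 9141.9, 4428.3 and 2576.7 in FP-KO lungs on Day 14, against 3048.2, 1803.0, 1785.6, 1759.0 and 2659.9 in WT lungs. The highest FP-KO value on any day was that of Day 14 No. 2, and the lowest FP-KO lung of that day lay within the WT range.

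Cox8b encodes a subunit of cytochrome c oxidase found in brown fat, heart and skeletal muscle, and so does not mark fat alone. It gave 659.5, 825.3, 453.7 and 480.4 in FP-KO lungs on Day 0, against 1954.5, 808.5, 740.9 and 919.0 in WT lungs. It gave 442.7, 411.1, 482.4 and 463.7 in FP-KO lungs on Day 7, against 147.1, 306.8, 383.7 and 400.8 in WT lungs. It gave 297.2, 391.6, 525.9 and 260.9 in FP-KO lungs on Day 14, against 181.7, 75.4, 132.5, 100.5 and 181.5 in WT lungs. The genotypes did not overlap on Day 7 or Day 14, with FP-KO higher on both days. FP-KO Day 14 No. 2 was not extreme for this gene.

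Ucp1 encodes the uncoupling protein by which brown fat makes heat, and it did not pass the filter, being above the array median in 3 arrays. On Day 0 it read 119.2, 562.2, 11.3 and 17.4 in FP-KO lungs, against 473.6, 9.7, 40.7 and 148.2 in WT lungs. After bleomycin 1 of 17 lungs exceeded 24.3, the floor set before logs were taken, namely FP-KO Day 7 No. 2 with 49.4, and the next highest was a WT Day 14 lung with 16.8. On Day 0 the floor was exceeded in 5 of 8 lungs, and in 4 of 8 the intensity was above 100. The lungs with the highest Ucp1 of each genotype were also those with the highest Cidea, another gene of brown fat: FP-KO Day 0 No. 2 had 586.4 and WT Day 0 No. 1 had 763.6 for Cidea, against 134.5 to 249.6 in the other FP-KO lungs and 140.8 to 260.9 in the other WT lungs of that day. With the filter dropped, limma gave a Ucp1 difference of -1.87 (log2) for WT Day 7 minus WT Day 0 (adjusted p = 0.11) and for WT Day 14 minus WT Day 0 (adjusted p = 0.084). These differences depend on the floor, since every WT lung of Day 7 and Day 14 was set to it.

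**Figure D1:**
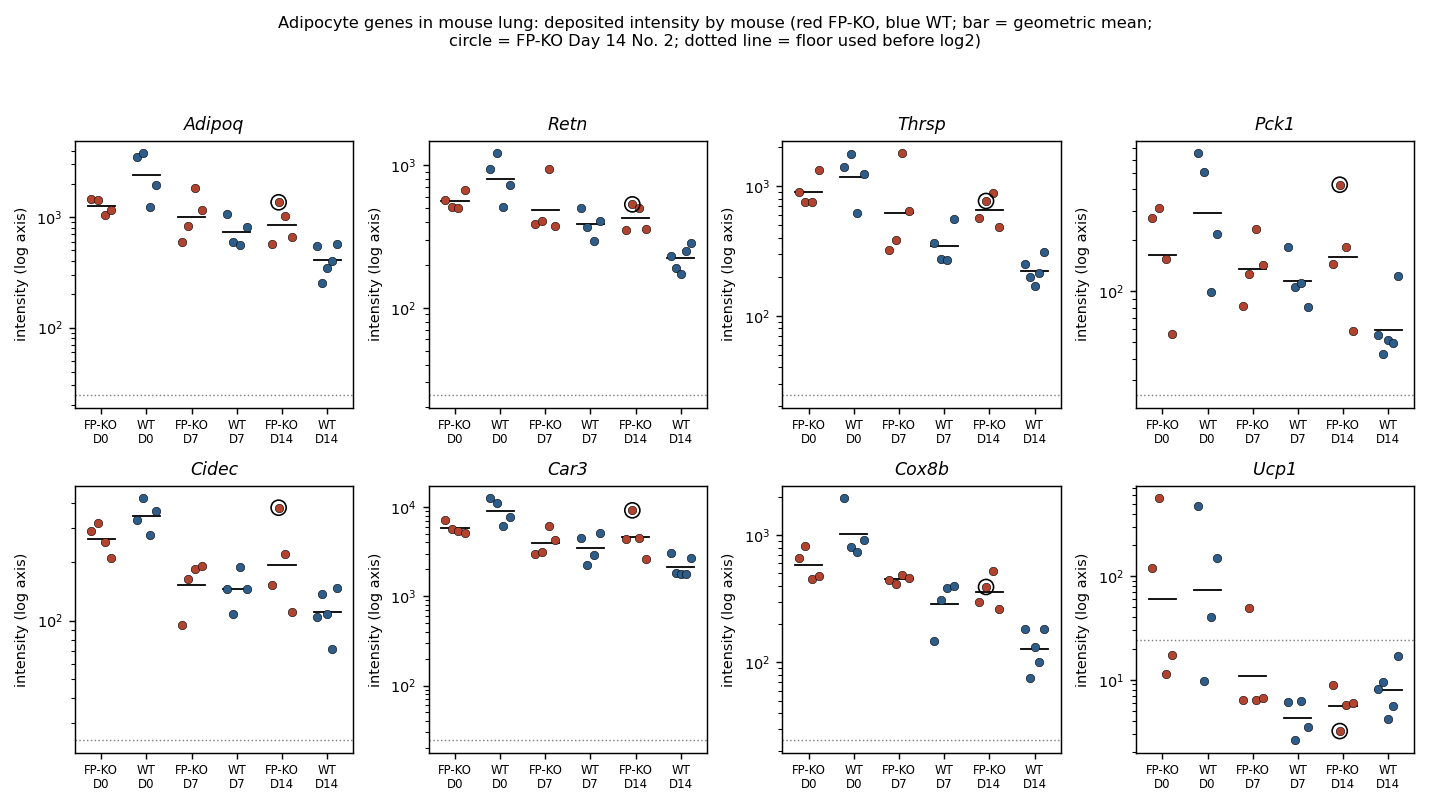
Deposited intensity of 8 adipocyte genes on a log axis, 1 point per mouse, red for FP-KO and blue for WT, by day (D0, D7, D14), with bars at geometric means, the array FP-KO Day 14 No. 2 circled and a dotted line at the floor of 24.3. The WT means of the 7 tested genes step down with time, as in Adipoq, with points at 1236.0 to 3788.9 on Day 0, 561.6 to 1076.3 on Day 7 and 251.1 to 573.2 on Day 14. Among these 7, the WT points of Day 7 and Day 14 overlap for all but Retn. For Ucp1 the WT points of both these days lie under the dotted line. The FP-KO points of the 3 days overlap for Adipoq, Retn, Thrsp, Pck1, Car3 and Cox8b.

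The first comparison is of WT lungs over time. Adipocyte genes fell after bleomycin in WT lungs: 6 of the 7 tested members were lower on Day 7 than on Day 0 and all 7 were lower on Day 14, by limma at an adjusted p under 0.05 over all 12062 genes. Of all 12062 genes, 2171 were called lower on Day 7 (35.1% were called in either direction), and 19.5% were called lower on Day 14. The median log2 difference over the members was -1.39 on Day 7 and -2.16 on Day 14, beside -0.01 over all genes tested on either day. A measure of RNA quality moved with the change, the ratio of the Actb probe sets at the 3′ and the 5′ end of the transcript, which was 1.23 to 1.32 in WT lungs on Day 7 and 1.21 to 1.40 on Day 14, against 1.34 to 1.62 on Day 0. Its part in the result was not tested. Cox8b had the largest of these differences, -2.95 ± 0.31 (SE) on the log2 scale on Day 14, which is 7.71-fold lower than on Day 0 (limma adjusted p = 3.44e-07). Adipoq was 5.89-fold lower on Day 14 than on Day 0 (log2 difference -2.56 ± 0.34, limma adjusted p = 5.57e-06) and Thrsp 5.16-fold lower (-2.37 ± 0.38, limma adjusted p = 4.06e-05). Car3 was 4.22-fold lower (-2.08 ± 0.31, limma adjusted p = 1.88e-05), Retn 3.55-fold lower (-1.83 ± 0.26, limma adjusted p = 1e-05), and Pck1 and Cidec differed by -2.16 ± 0.58 and -1.58 ± 0.28 on the log2 scale (limma adjusted p = 0.00522 and 0.000136).

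All but Pck1 were already called lower on Day 7. The log2 differences from Day 0 were -1.66 ± 0.36 for Adipoq, -1.02 ± 0.27 for Retn, -1.71 ± 0.40 for Thrsp, -1.23 ± 0.30 for Cidec, -1.39 ± 0.32 for Car3 and -1.78 ± 0.32 for Cox8b (SE, limma adjusted p between 0.000184 and 0.00524). Pck1 was not called on Day 7, with -1.30 ± 0.61 (limma adjusted p = 0.103), and was called once WT Day 0 No. 3 was left out (-1.85, limma adjusted p = 0.0211). On the normalized log2 scale, on which all overlaps are counted, groups did not overlap for 5 members on Day 7 (all but Retn and Pck1), against 17.8% of all genes being without overlap and lower, and for 6 members on Day 14 (all but Pck1), against 13.7%. In the deposited intensities Retn did not overlap on Day 7 either, at 503.0 in the highest WT lung of Day 7 against 505.0 in the lowest of Day 0, and no other member differed between the scales in any comparison. Between Day 7 and Day 14 the members had a median log2 difference of -0.81, and 1 was called, Cox8b with -1.16 ± 0.31 (limma adjusted p = 0.03), beside 2.37% of all genes called lower. That count was 0 without any 1 of WT Day 7 No. 2, No. 3 or No. 4 or of WT Day 14 No. 2 or No. 3, and 2 without WT Day 14 No. 5. The shares of all genes called lower in those fits are not given here. Retn was the member whose WT groups of Day 14 and Day 7 did not overlap (5.34% of all genes were without overlap and lower), with a log2 difference of -0.81 ± 0.26 that was not called (limma adjusted p = 0.063).

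In FP-KO lungs no member was called between any pair of days, although the 7 differences from Day 0 were negative on both days. On Day 7 the differences from Day 0 lay between -0.71 ± 0.30 for Cidec (limma adjusted p = 0.0853) and -0.16 ± 0.27 for Retn (limma adjusted p = 0.715), with a median of -0.33. Over all genes, 10.7% were called lower in that comparison, and at an unadjusted p under 0.05 the count of members was 1, Cidec, beside 36.7% of all genes. Cidec was the 1 member whose FP-KO groups of Day 7 and Day 0 did not overlap, against 12.7% of all genes without overlap and lower. FP-KO Day 7 No. 3 bore on these values: without it Thrsp was called, at -1.01 ± 0.33 (limma adjusted p = 0.0338). With mouse number as a block over the Day 0 and Day 7 arrays, Cidec was called, at -0.71 ± 0.25 (limma adjusted p = 0.0469). On Day 14 the differences from Day 0 lay between -0.75 ± 0.32 for Cox8b (limma adjusted p = 0.2) and -0.02 ± 0.61 for Pck1 (limma adjusted p = 0.993), with a median of -0.45, beside 1.41% of all genes called lower; at an unadjusted p under 0.05 the count of members was 1, Cox8b, beside 19.2% of all genes. Without FP-KO Day 14 No. 2 the count called on Day 14 against Day 0 was still 0. For Day 14 minus Day 7 the differences ran from -0.42 for Cox8b to 0.30 for Car3, with 22.7% of all genes called in either direction, and no member passed an unadjusted p under 0.05, beside 37.3% of all genes.

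**Figure D2:**
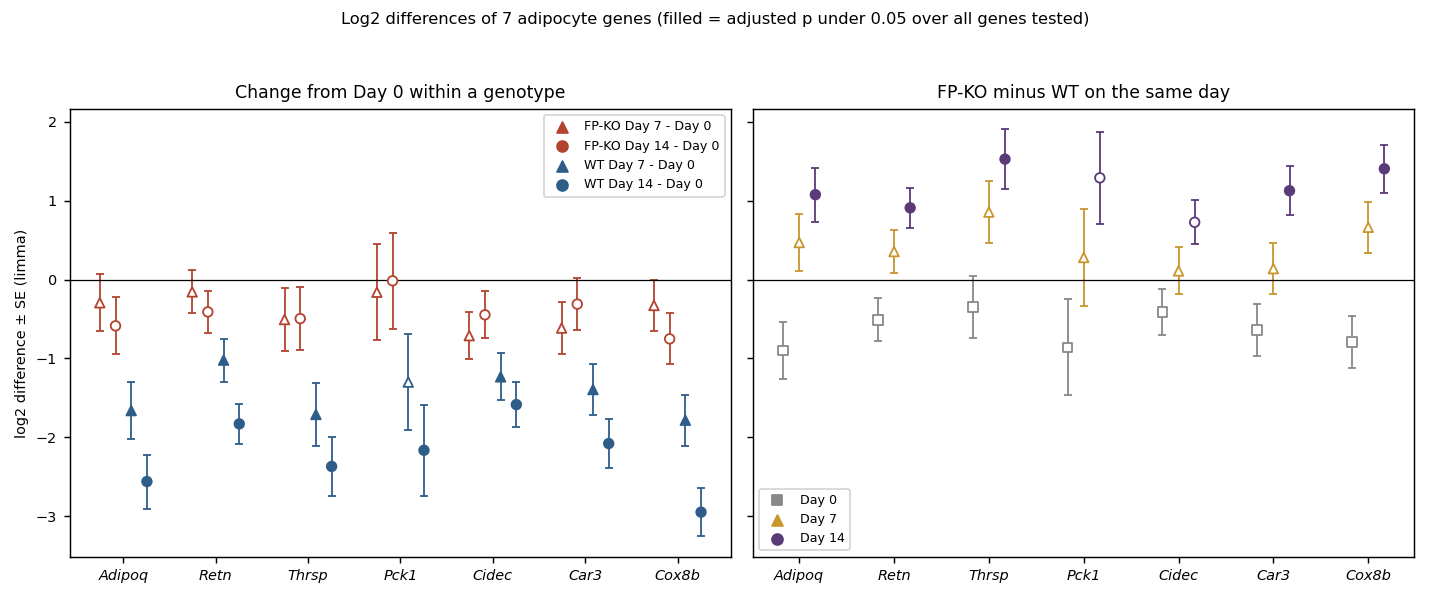
Log2 differences with SE of the 7 tested adipocyte genes from limma, the change from Day 0 within FP-KO (red) and WT (blue) on the left and FP-KO minus WT on each day on the right, with filled symbols for an adjusted p under 0.05. On the left the WT symbols reach -2.95 and all but Pck1 on Day 7 are filled, whereas no FP-KO symbol is filled; on the right the symbols lie below 0 on Day 0 and above 0 on Day 14.

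The genotypes were then compared on each day. On Day 0 no member was called between FP-KO and WT lungs. All 7 differences were negative, from -0.90 ± 0.36 for Adipoq to -0.35 ± 0.40 for Thrsp, each with a limma adjusted p of 1, and 0.00829% of all genes were called lower. At an unadjusted p under 0.05 the count was 2, Adipoq and Cox8b, beside 3.34% of all genes. On Day 7, with all arrays, all 7 differences were positive, from 0.11 ± 0.30 for Cidec to 0.86 ± 0.40 for Thrsp (limma adjusted p = 0.963 and 0.664), and none was called, beside 0.00829% of all genes called higher. At an unadjusted p under 0.05 the count was 1, Thrsp, beside 7.27% of all genes. FP-KO Day 7 No. 3 bore on these differences as well. Their median was 0.35, and it was 0.05 with this array and FP-KO Day 14 No. 2 both left out. Cox8b was the member whose genotypes did not overlap on Day 7, at 450.0 ± 30.6 in FP-KO and 309.6 ± 116 in WT lungs (mean intensity ± SD, n = 4 each), with 2.68% of all genes without overlap and higher.

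On Day 14, 5 of the 7 members were higher in FP-KO than in WT lungs and none was lower, beside 4.89% of all genes called higher and 5.64% called lower. Thrsp averaged 677.6 ± 185 in FP-KO lungs and 228.3 ± 54.1 in WT lungs (mean intensity ± SD, n = 4 and 5), 2.88-fold higher on the log2 mean (1.53 ± 0.38, limma adjusted p = 0.0127). Cox8b averaged 368.9 ± 118 in FP-KO lungs and 134.3 ± 47.7 in WT lungs, 2.65-fold higher (1.40 ± 0.31, limma adjusted p = 0.00633). Car3 averaged 5125 ± 2811 in FP-KO lungs and 2211 ± 603 in WT lungs, 2.18-fold higher (1.13 ± 0.31, limma adjusted p = 0.0229). Adipoq averaged 902.5 ± 362 in FP-KO lungs and 423.3 ± 136 in WT lungs, 2.11-fold higher (1.08 ± 0.34, limma adjusted p = 0.0458). Retn averaged 434.7 ± 95.0 in FP-KO lungs and 225.0 ± 45.6 in WT lungs, 1.88-fold higher (0.91 ± 0.26, limma adjusted p = 0.0266). Pck1 and Cidec were not called, at 1.29 ± 0.58 and 0.73 ± 0.28 (limma adjusted p = 0.16 and 0.1). The genotypes did not overlap for Thrsp, Retn and Cox8b, and 5.26% of all genes were without overlap and higher. The Actb ratio of that day was 1.38 to 1.56 in FP-KO lungs and 1.21 to 1.40 in WT lungs, and its part was not tested.

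The number of calls depended on which lungs entered. Without FP-KO Day 14 No. 2, 1 of 7 members was called higher, beside 1.59% of all genes. This was Cox8b at 1.37 ± 0.34 (limma adjusted p = 0.0308), and all 7 differences stayed above 0. The others were then 1.46 for Thrsp (limma adjusted p = 0.0552), 0.82 for Retn (0.112), 0.79 for Car3 (0.139), 0.85 for Adipoq (0.2), 0.42 for Cidec (0.417) and 0.83 for Pck1 (0.487). The estimates for Thrsp, Cox8b and Retn moved by less than 0.1, whereas those for Car3, Cidec and Pck1 were lower by over 0.3. The count of called members was 3 without FP-KO Day 14 No. 3, 2 without WT Day 14 No. 2, 2 without WT Day 14 No. 3 and 6 without FP-KO Day 14 No. 4, the added member being Cidec. In those 4 fits 3.94%, 2.85%, 3.18% and 4.51% of all genes were called higher.

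Within the first set of Day 14 arrays, which holds FP-KO No. 2, 2 members were called, beside 4.34% of all genes called higher: Car3 at 1.61 ± 0.39 (limma adjusted p = 0.0168) and Cox8b at 1.36 ± 0.41 (limma adjusted p = 0.0446). Within the second set none was called, beside 2 of all 12062 genes, and the differences were 1.42 ± 0.48 for Cox8b, 1.33 ± 0.62 for Thrsp, 0.77 for Adipoq, 0.65 for Car3, 0.64 for Retn, 0.55 for Cidec and 0.34 for Pck1 (limma adjusted p between 0.301 and 0.949). In that set, of 2 FP-KO and 2 WT arrays, 2 genes were called out of all 12062. In the first set without FP-KO No. 2, which leaves 1 FP-KO array assumed to vary as the other groups do, none was called and the 7 differences lay between 0.33 and 1.42, and 16 of all 12062 genes were called. With the set as a term in the fit, 5 members were called, beside 6.77% of all genes called higher.

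**Figure D3:**
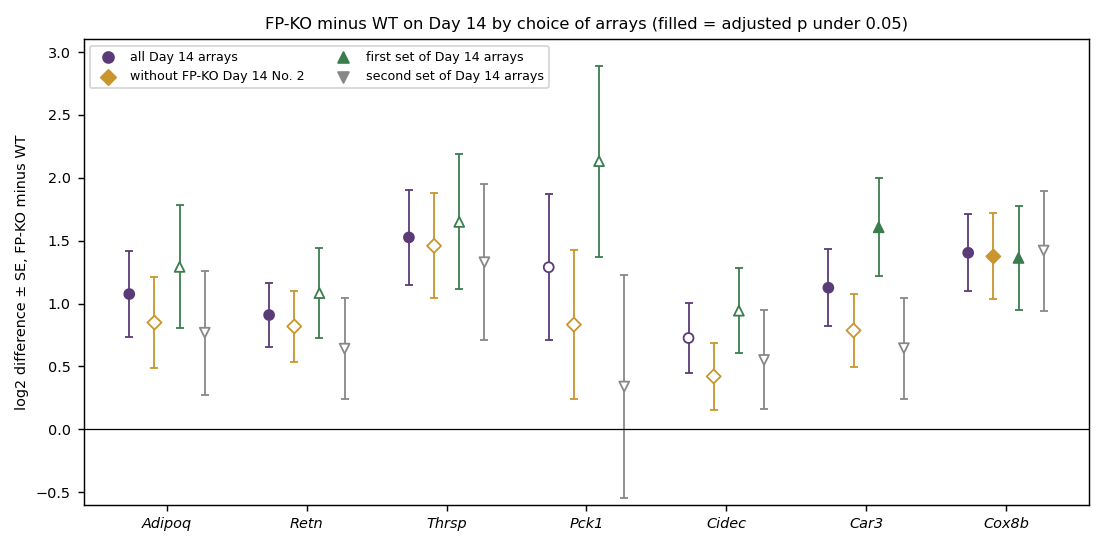
FP-KO minus WT on Day 14 (log2 difference with SE, limma) for 7 adipocyte genes, with all Day 14 arrays, without FP-KO Day 14 No. 2, and in the first and second set of Day 14 arrays, with filled symbols for an adjusted p under 0.05. All symbols lie above 0, and those of Cox8b stay between 1.36 and 1.42 under the 4 choices while those of Pck1 run from 0.34 to 2.13.

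The interaction asks whether the change from Day 0 differed between genotypes. On Day 14 the change was less negative in FP-KO than in WT lungs for all 7 members, and 4 passed: Cox8b at 2.20 ± 0.45 (limma adjusted p = 0.0159), Adipoq at 1.97 ± 0.50 (0.0347), Car3 at 1.77 ± 0.45 (0.0348) and Retn at 1.42 ± 0.37 (0.0412), beside 1.28% of all genes called higher. Thrsp at 1.87 ± 0.55 (limma adjusted p = 0.0594), Pck1 at 2.15 ± 0.84 (0.158) and Cidec at 1.14 ± 0.41 (0.12) did not pass. Each value is the Day 14 difference between genotypes minus the Day 0 difference. For Adipoq these parts were 1.08 and -0.90, and for Thrsp they were 1.53 and -0.35. Without FP-KO Day 14 No. 2, 1 member passed, Cox8b at 2.17 ± 0.48 (limma adjusted p = 0.0364), beside 0.431% of all genes called higher. The count was also 1 without any 1 of the 4 FP-KO Day 0 arrays, of WT Day 0 No. 1 or No. 2, or of WT Day 14 No. 2, No. 3 or No. 4, it was 2 without FP-KO Day 14 No. 3, and it was 6 without FP-KO Day 14 No. 4. The shares of all genes called higher in those fits are not given here, so these counts are no result about the members. On Day 7 all 7 interaction values were positive, from 0.52 for Cidec to 1.45 for Cox8b, and none passed (limma adjusted p between 0.772 and 0.858), beside 0% of all genes called higher. At an unadjusted p under 0.05 the count was 4, Adipoq, Retn, Thrsp and Cox8b, beside 6.34% of all genes. The median of the 7 values was 1.14, and it was 0.70 with FP-KO Day 7 No. 3 and FP-KO Day 14 No. 2 both left out.

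Mice of the same group differed from each other in several members at once. FP-KO Day 7 No. 3 was above its group mean in 7 of 7 members, by 0.70 on the log2 scale on average, and so were FP-KO Day 14 No. 2 (0.65) and WT Day 14 No. 5 (0.50). Below the group mean in all 7 members were WT Day 0 No. 3 (mean deviation -0.80), FP-KO Day 14 No. 4 (-0.66), FP-KO Day 7 No. 1 (-0.58), FP-KO Day 14 No. 1 (-0.27) and FP-KO Day 0 No. 3 (-0.20). As a description over 25 arrays that share groups and scaling, the correlation of a member's deviations with the mean of the other 6 was 0.90 for Adipoq, 0.80 for Car3, 0.74 for Pck1, 0.72 for Retn, 0.67 for Thrsp, 0.65 for Cidec and 0.39 for Cox8b. Without FP-KO Day 14 No. 2 these values lay between 0.41 for Cox8b and 0.89 for Adipoq.

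**Figure D4:**
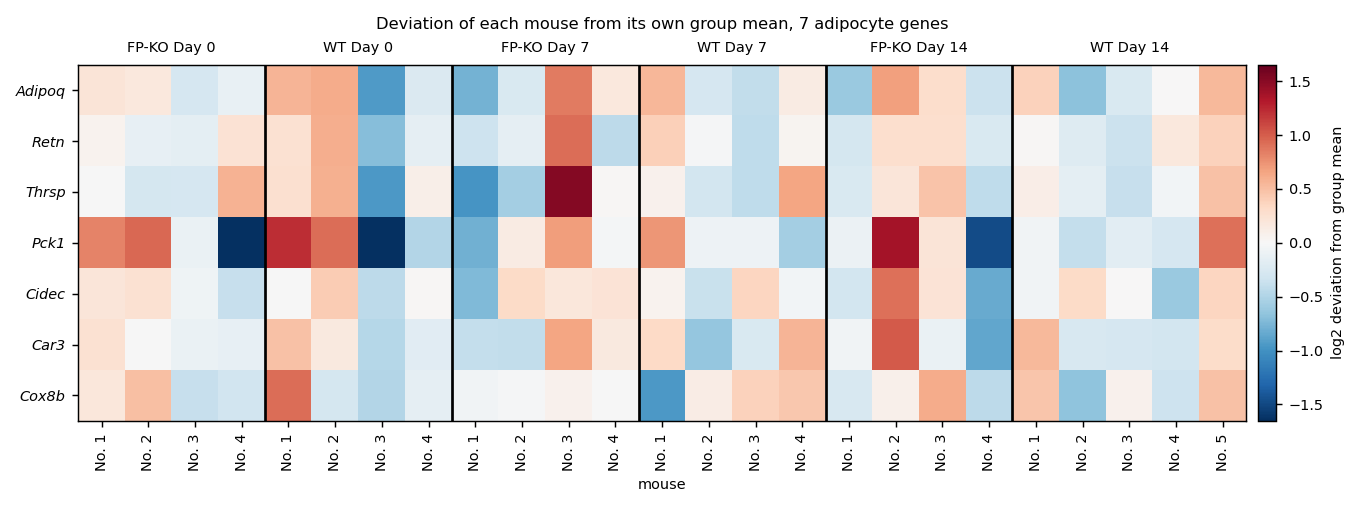
Log2 deviation of each of the 25 mice (columns, by group, FP-KO left of WT on each day) from the mean of its own group, for 7 adipocyte genes (rows), red above and blue below. Columns tend to 1 colour, as in FP-KO Day 7 No. 3 (mean 0.70) and WT Day 0 No. 3 (mean -0.80), and Cox8b departs most from the other rows.

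The 10 genes whose deviations were most like the mean of the 7 members, over 25 arrays, began with Fabp4 (r = 0.89), the fatty acid carrier of fat cells and of capillary endothelium, and Cyp2e1 (0.89), a cytochrome P450 of liver that fat also expresses. Pxdc1 (0.83), Sbsn (0.77), Txnip (0.77), Muc16 (0.76), Paip1 (0.75), Crebl2 (0.74), 2900052L18Rik (0.74) and Pard3b (0.73) followed. When FP-KO Day 14 No. 2 was left out, 5 of the 10 were among the 10 most alike, with Fabp4 and Cyp2e1 in front (0.88 and 0.87). Fabp4 itself ranged over 2171.3 to 6137.4 in FP-KO and 1916.7 to 2867.6 in WT lungs on Day 14, and over 2812.5 to 4440 in FP-KO and 3394.1 to 7913.8 in WT lungs on Day 0.

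Other genes of fat were taken from lists, whose counts stand beside these shares of all 12062 genes. In WT lungs 35.1% were called in either direction on Day 7 and 19.5% were called lower on Day 14. In FP-KO lungs 10.7% were called lower on Day 7 and 1.41% on Day 14. In either direction, 4664 of the 12062 genes were called in WT lungs on Day 14. In FP-KO lungs 2814 were called in either direction on Day 7 and 393 on Day 14. Between genotypes on Day 14, 4.89% were called higher and 5.64% lower in FP-KO lungs. Whether a list differs from these shares was not tested. Of 23 tested genes of lipid storage and fatty acid handling, 11 were lower and 1 higher in WT lungs on Day 7 than on Day 0, and 12 were lower and 1 higher on Day 14, with a median log2 difference of -0.50 and -0.48. Plin4, a coat protein of lipid droplets, fell by 1.11 ± 0.21 on Day 7 and by 1.29 ± 0.20 on Day 14 (limma adjusted p = 0.000252 and 2.94e-05). Fabp4 fell by 1.06 ± 0.28 and 1.26 ± 0.27 (0.005 and 0.000756) and Slc7a10, a carrier of small amino acids found in white fat and brain, by 1.17 ± 0.27 and 1.15 ± 0.25 (0.00163 and 0.00111). In FP-KO lungs 4 were lower on Day 7, the largest differences being those of Slc7a10 (-0.84), Dgat2 (-0.56), which makes triglyceride, and the lipase Pnpla2 (-0.53), with limma adjusted p between 0.0148 and 0.0289. The 1 that was higher was Plin2, a droplet coat protein of many cell types (0.53 ± 0.13, limma adjusted p = 0.00617). On Day 14 the lipase Mgll was the 1 gene lower in FP-KO lungs (-0.48 ± 0.11, limma adjusted p = 0.0158). FP-KO lungs were higher than WT lungs on Day 14 in 3 of the 23 genes, Slc7a10 at 1.26 ± 0.25 (limma adjusted p = 0.00423), Lpin1, a phosphatase of triglyceride synthesis, at 0.56 ± 0.17 (0.0313) and Pnpla2 at 0.45 ± 0.14 (just under the threshold), and in 1 without FP-KO Day 14 No. 2. Lep, the gene of leptin, lay at or under the floor in all 8 Day 0 lungs but 1 and is not among those tested.

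The enzymes of fatty acid synthesis formed another list. Of 13 tested, 4 were lower and 1 higher in WT lungs on Day 7, and 1 was lower and 3 were higher on Day 14, when Scd1, which makes monounsaturated fatty acids, rose by 0.53 ± 0.11 (limma adjusted p = 0.000646) and Acss2, which makes acetyl-CoA from acetate, fell by 0.72 ± 0.16 (0.00093). Of all genes, 35.1% were called in either direction in WT lungs on Day 7, and 19.5% were called lower on Day 14. In FP-KO lungs 3 of the 13 were lower on Day 7, beside 10.7% of all genes, and 0 on Day 14. Alveolar type 2 cells also make fatty acids for surfactant, and 5 of 9 of their marker genes were lower in WT lungs on Day 7, while on Day 14 0 were lower and 2 higher. In FP-KO lungs 3 of the 9 were lower on Day 7, and on Day 14 0 were lower and 0 higher. None of the 13 enzymes was called between genotypes on any day, and at Day 14 their median log2 difference was 0.02.

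Among 8 tested transcription factors of fat cells, 1 was called between genotypes, Klf15, a factor of fat cell differentiation and of metabolism in several tissues. It was lower in WT lungs on Day 7 (-1.34 ± 0.31, limma adjusted p = 0.00159) and on Day 14 (-1.19 ± 0.29, 0.0027), and on Day 14 it was higher in FP-KO lungs, at 919.8 to 1713.5, than in WT lungs, at 468.7 to 656.8 (1.20 ± 0.29, limma adjusted p = 0.0116). Without FP-KO Day 14 No. 2 none of the 8 was called between genotypes. Pparg, the main regulator of fat cell differentiation, which alveolar macrophages also express, had log2 differences of 0.01 ± 0.17 on Day 7 and 0.10 ± 0.16 on Day 14 in WT lungs (limma adjusted p = 0.985 and 0.642). On Day 14 Ebf1, a factor of fat and B cell development, fell by 1.51 ± 0.42 in WT lungs and Cebpb rose by 0.51 ± 0.18 (limma adjusted p = 0.00626 and 0.028). Cebpd rose by 0.82 ± 0.21 on Day 7 in WT lungs and by 0.65 ± 0.21 in FP-KO lungs (limma adjusted p = 0.00367 and 0.0268). Of the 8 factors, 1 was higher and 1 lower in WT lungs on Day 7, and 1 was higher and 2 lower on Day 14. In FP-KO lungs 1 was higher and 2 were lower on Day 7, beside 10.7% of all genes called lower. These 2 were Rxra (-0.46 ± 0.16, limma adjusted p = 0.0429) and Cebpa (-0.34 ± 0.11, 0.0254). On Day 14 0 of the 8 were called in FP-KO lungs against Day 0. Of 8 receptors and complement partners of the adipokines, 3 rose and 3 fell in WT lungs on Day 7, C3ar1, the receptor of a complement fragment on myeloid cells, rising by 2.41 ± 0.24 (limma adjusted p = 2.24e-07). In FP-KO lungs 3 rose and 0 fell on Day 7, C3ar1 rising by 1.60 ± 0.24 (limma adjusted p = 6.65e-05). On Day 14, with all arrays, 1 of these 8 was higher in FP-KO than in WT lungs, Lepr, the leptin receptor (0.61 ± 0.14, limma adjusted p = 0.00871), and 1 was lower, C3ar1 (-1.18 ± 0.22, 0.00299). C3ar1 also passed the interaction at Day 14 with all arrays (-1.37 ± 0.33, limma adjusted p = 0.0278). The Lepr and C3ar1 values without FP-KO Day 14 No. 2 are not given here. The adiponectin receptor genes were not called between genotypes on that day, with Adipor1 at -0.02 ± 0.10 and Adipor2 at 0.23 ± 0.11 (limma adjusted p = 0.916 and 0.183).

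Of 6 tested brown fat genes, 5 were lower in WT lungs on Day 7 and 6 on Day 14, with medians of -0.87 and -0.84. Cidea, a droplet protein of brown fat, fell by 1.55 ± 0.46 on Day 7 and by 1.70 ± 0.43 on Day 14 (limma adjusted p = 0.0104 and 0.00361). Fabp3, a fatty acid carrier of heart, muscle and brown fat, fell by 1.18 ± 0.24 and 1.16 ± 0.23 (0.000505 and 0.000353). Cox7a1, an oxidase subunit shared with heart and muscle, fell by 1.02 ± 0.22 and 1.41 ± 0.21 (0.0011 and 2.22e-05), and was the 1 brown fat gene higher in FP-KO than in WT lungs on Day 14 (0.66 ± 0.21, limma adjusted p = 0.0493), a call that was not made without FP-KO Day 14 No. 2. In FP-KO lungs 1 of the 6 was lower on Day 7 and 0 on Day 14.

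Heart muscle was examined because it, too, lies beside the lung. Of 15 tested genes of heart muscle, 11 were lower in WT lungs on Day 7 and 14 on Day 14, against 1 and 0 in FP-KO lungs, and 10 were higher in FP-KO than in WT lungs on Day 14 (4 without FP-KO Day 14 No. 2). Their interaction at Day 14 was positive and passed for 10 of 15, and for 5 without that array. Nppa, the atrial natriuretic peptide, fell by 2.34 ± 0.36 in WT lungs by Day 14 (limma adjusted p = 2.63e-05), and Mb, the myoglobin gene of heart and skeletal muscle, by 1.95 ± 0.30 (3.48e-05). On Day 14 Nppa ranged over 757.7 to 1670.9 in FP-KO and 160 to 658.5 in WT lungs (with all arrays 1.59 ± 0.36, limma adjusted p = 0.0073). The summed intensity of the 17 heart genes with a probe set was 18366.1 to 30975.5 in FP-KO and 12187.9 to 15800.3 in WT lungs on Day 14, and 20589.6 to 29809.9 in FP-KO and 30409.1 to 37940.1 in WT lungs on Day 0. Nppa, Mb and Myh7 of the heart list were above 0 in every group, which on an array does not by itself show expression. The part of such tissue in the result was not tested.

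The other lists varied in how they moved. Of 7 tested genes of skeletal muscle, 1 was lower on Day 7 and 4 on Day 14 in WT lungs, and 0 were called between genotypes. Their summed intensity reached 7762.8 in WT Day 0 No. 1, also the lung with the highest Cox8b, against at most 3165.8 elsewhere. Macrophage genes ran the other way, with 10 of 10 higher in WT lungs on Day 7 and 9 on Day 14, and 7 of 10 lower in FP-KO than in WT lungs on Day 14 (3 without FP-KO Day 14 No. 2). In FP-KO lungs 8 of the 10 were higher on Day 7 and 5 on Day 14. FP-KO Day 14 No. 2 had the lowest summed macrophage intensity after bleomycin, 13058.6, within the range of all Day 0 lungs (12440.6 to 15964.4), and the other FP-KO lungs of Day 14 had 24604.7 to 24809. Of 11 liver genes with a probe set 2 were tested, Fabp1 and Asgr1, and both were lower on Day 7 in FP-KO lungs (-1.36 and -1.28) and in WT lungs (-2.59 and -1.98), and on Day 14 in WT lungs (-2.94 and -2.33). With all arrays, Fabp1 was higher in FP-KO than in WT lungs on Day 14 (1.66 ± 0.37, limma adjusted p = 0.00701). Its value without FP-KO Day 14 No. 2 is not given here. The defining liver gene Alb lay between 43.2 and 138.5 on all arrays. No thymocyte gene passed the filter, and of the 2 erythroid genes tested 1 was lower in WT lungs on Day 7, Alas2 (-1.71 ± 0.47, limma adjusted p = 0.00638), and 0 were called on Day 14. Of 4 mesothelial genes 3 were lower and 1 higher in WT lungs on Day 14, and 0 were called between genotypes. On Day 7, 2 of the 4 were lower in FP-KO lungs and 2 in WT lungs. Of 10 endothelial genes 6 were lower in WT lungs on Day 7 and 5 on Day 14, and 3 were higher in FP-KO than in WT lungs on Day 14 (1 without FP-KO Day 14 No. 2). In FP-KO lungs 5 of the 10 were lower on Day 7 and 0 on Day 14, and the median log2 difference on Day 7 was -0.55, against -0.53 in WT lungs. The 1 cartilage gene tested, Chad, was lower in WT lungs on both days and in FP-KO lungs on Day 7 (-0.75 ± 0.26, limma adjusted p = 0.0392). What share each of these has in the values of the adipocyte genes was not tested.

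Single members differed in how they went with these lists, as a description over deviations from group means in 25 arrays. With the mean of the heart list the correlation was 0.59 for Car3 and 0.54 for Cox8b, and 0.17 to 0.40 for the other 5. With the mean of the brown fat list it was 0.76 for Pck1 and 0.68 for Cox8b, and 0.30 to 0.57 for the other 5. With the mean of the macrophage list all 7 were negative, from -0.64 for Car3 and -0.49 for Cidec to -0.14 for Cox8b. Without FP-KO Day 14 No. 2 the heart list gave 0.58 for Cox8b, 0.47 for Car3, 0.16 for Cidec and 0.17 for Pck1, the last 2 against 0.35 and 0.31 with it. The macrophage list then gave -0.41 for Car3, -0.07 for Cidec and -0.0037 for Pck1, against -0.34 for Pck1 with that array, while the brown fat list gave 0.77 for Pck1 and 0.68 for Cox8b. The lists share arrays and scaling with the members, so these values describe likeness only.

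**Figure D5:**
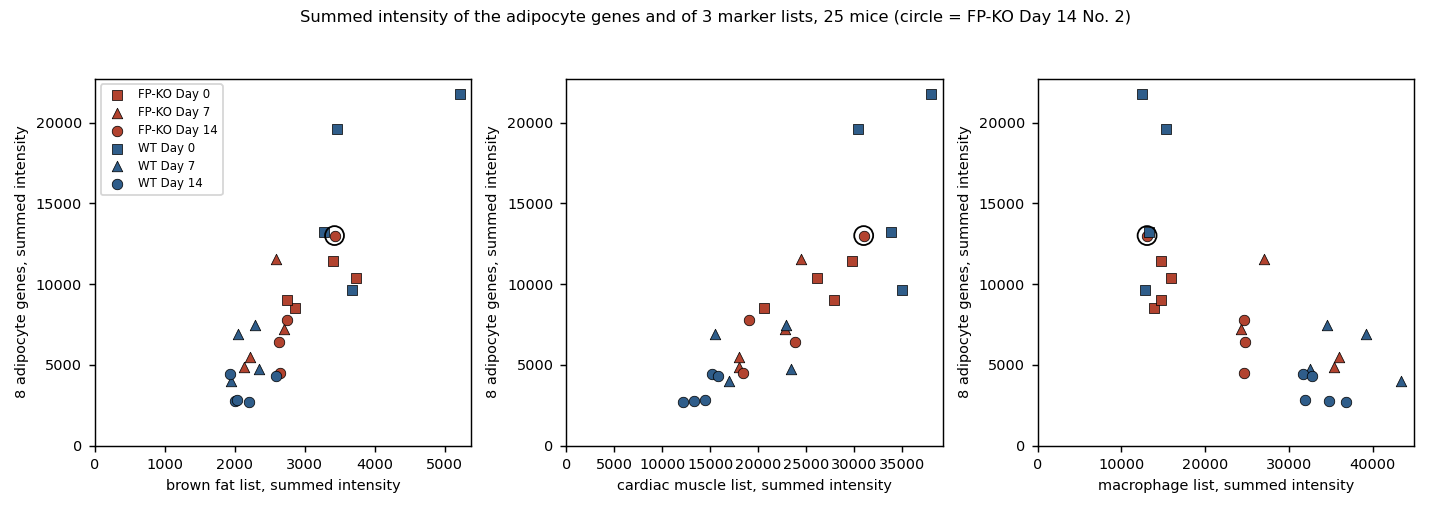
Summed intensity of the 8 adipocyte genes, most of it from Car3, against that of the brown fat, heart muscle and macrophage lists, 1 point per mouse, red for FP-KO and blue for WT, with squares for Day 0, triangles for Day 7 and circles for Day 14. The circled array FP-KO Day 14 No. 2 lies at 13004.6 for the adipocyte genes, among the Day 0 squares in each panel, and the 5 WT Day 14 lungs lie at 2706.2 to 4425.5.

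Further probe sets that passed the filter had the same sign in WT Day 14 minus Day 0 and in FP-KO minus WT on Day 14. Signs differed in some other comparisons. A second Car3 probe set was lower in WT lungs on Day 14 than on Day 0 (-1.92 ± 0.36, limma adjusted p = 0.000287 over 21403 probe sets) and higher in FP-KO than in WT lungs on Day 14 by 1.16 ± 0.36, which was not called (0.0525). Another Car3 probe set differed between genotypes by 0.14 ± 0.62 on that day (limma adjusted p = 0.935). In WT lungs it averaged 6.28 on Day 14 and 5.84 on Day 7 (normalized log2), whereas the main Car3 probe set was lower on Day 14. In FP-KO lungs the second Car3 probe set averaged 10.07 on Day 14 and 10.05 on Day 0, whereas the main one was lower on Day 14. The second Thrsp probe set gave -1.79 ± 0.37 for WT Day 14 minus Day 0 (limma adjusted p = 0.000689) and 1.02 ± 0.37 for FP-KO minus WT on Day 14 (0.097). One further probe set each of Car3 and Thrsp and 2 of Pck1 did not pass the filter, and 1 of those for Pck1 was under the floor on every array, at 0.3 to 24.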

How the data were processed

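Lung RNA of 25 mice was measured on Affymetrix mouse 430 2.0 arrays. The deposited values are 1 linear intensity per probe set and array, which the authors had scaled to a trimmed mean of 500 (2% off each end, as the values show); no source used here names the software. Per the labels, 6 ug of total RNA was used for each array. Of the probe sets, 34945 had 1 gene symbol, 932 several and 9160 none, and 64 were controls. Intensities were floored at their 20th percentile (24.3), log2 transformed and quantile normalized, because array medians ranged over 0.432 (log2), above a limit of 0.3. Then limma 3.58.1 in R 4.3.3 fitted 6 group means with 11 contrasts, with Benjamini-Hochberg adjustment over all genes tested and calls at 0.05, after a test on simulated data. The number of arrays limits the precision. The labels do not say that mice of a group came from separate litters. A p-value of the main fit sets a difference of group means against the spread of these arrays within the 6 groups.

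The members and lists were chosen with earlier results of these data known. All members are named. The rule for list genes allowed up to 4 per list and comparison that passed, largest change first; not every gene it allows is named, and Pparg, Lep, Adipor1, Adipor2 and Alb were chosen outside it after their values were seen. Mouse numbers are shared between groups: deviations of same-numbered FP-KO and WT mice correlated at 0.119 to 0.345 on Day 0, 0.141 to 0.221 on Day 7 and -0.308 to 0.437 on Day 14, so the numbers were taken to pair genotypes on Day 0 and Day 7 but not on Day 14, from the data alone. The main fit did not use this pairing. The block in the alternatives had 1 level per number across days, although same-numbered mice of Day 0 and Day 7 within a genotype correlated at 0.051 to 0.159. Alternatives changed the normalization, floor, filter, choice of probe set, moderation, array weights, block, samples and sets of Day 14 arrays.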

Additional observations from a re-analysis of the deposited data

Results flagged for a closer look

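Of 48 checks, 8 genes in the same 6 groups of mice, 3 found 1 mouse far from the others of its group. The cut-off is one that chance alone passes in about 1 in 20 checks of values without ties. That rate does not hold for Ucp1, which was at the floor in all mice of FP-KO Day 14, WT Day 7 and WT Day 14. It was also at the floor in 3 of the 4 mice of FP-KO Day 7. The checks share mice too, so no conclusion is drawn from the count. Pck1 read 122.4 in WT Day 14 No. 5, against 55.3 in the next highest mouse of that group. Cidec read 95.1 in FP-KO Day 7 No. 1, the lowest of a group that reached 190.6. Ucp1 read 49.4 in FP-KO Day 7 No. 2, against at most 6.6 in the other FP-KO mice of that day. The change from Day 0 to Day 14 differed between FP-KO and WT lungs, by the interaction in limma, for Adipoq (1.97), Car3 (1.77), Retn (1.42) and Cox8b (2.20), and without FP-KO Day 14 No. 2 for Cox8b alone among the 7 tested members (2.17).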

How the results depend on the processing

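The counts of called members in WT lungs against Day 0 were 6 to 7 of 7 on Day 7 and 7 on Day 14 when each mouse was left out in turn. The 1 call that a tested member lost under any alternative was Pck1 on Day 14 in the second set of arrays (-1.85, limma adjusted p = 0.0995). With the mean of a gene's probe sets 6 members were tested, Pck1 not among them, and all 6 were called on both days. With no filter 8 were tested, Ucp1 included. For WT Day 14 minus Day 7 (1 called) the count was 0 with no filter and in the second set, 2 with a replicate block over all arrays, in the first set and with FP-KO Day 14 No. 2 and FP-KO Day 7 No. 3 both left out, 3 in the first set without FP-KO Day 14 No. 2, 4 with array weights, and 0 to 2 without 1 mouse. For FP-KO Day 7 minus Day 0 (0 called) it was 1 with array weights, 1 with the replicate block over Day 0 and Day 7 arrays, 2 with both arrays left out (Car3 and Thrsp) and 0 to 1 without 1 mouse. For FP-KO minus WT on Day 14 (5 called) it was 3 with no filter, with the mean of a gene's probe sets and with only the groups compared, 2 in the first set and with both arrays left out, 0 in the second set and in the first set without FP-KO Day 14 No. 2, and 1 to 6 without 1 mouse. For the interaction at Day 14 (4 called) it was 1 with no filter and with both arrays left out, 2 with every probe set as its own row, 0 in the second set and in the first set without FP-KO Day 14 No. 2, and 1 to 6 without 1 mouse. In the other 4 comparisons (both genotype comparisons before Day 14, the interaction at Day 7, and FP-KO Day 14 against Day 0) and in FP-KO Day 14 minus Day 7 the count was 0 throughout (0 to 0 without 1 mouse). The replicate block changed no other count by over 1.5 times. Over the same 12062 genes, calls in either direction moved too. WT Day 14 minus Day 7 had 716 in the main fit, 2961 in the first set and 15 in the second. It had 1551 with the block and 3545 with array weights. FP-KO minus WT on Day 14 had 1270 in the main fit, 1147 in the first set and 2 in the second. It had 500 with only the groups compared and 346 with both arrays left out. The interaction at Day 14 had 376 in the main fit, 0 in the second set and 88 with both left out. Of 2026 values of single members, 1903 kept their side of the threshold, 100 lost it, 23 gained it and 0 called values changed sign; 39 that passed in neither had the other sign. The leaving out of both arrays, the first set without FP-KO Day 14 No. 2 and the 18S covariate were chosen after seeing the data. Fits with fewer mice or sets also have fewer arrays; what else moved these counts was not tested. Values near the floor, as for Ucp1, set no size of change.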
